A study of Homo sapiens with 16 samples.

Results

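The core pluripotency factors described here are 10 genes of 18132 measured: POU5F1, NANOG, SOX2, KLF4, PRDM14, ZFP42, FOXD3, SALL4, LIN28A and LIN28B. They were chosen by symbol from the annotation of the PrimeView array, a 3′ expression array, and each was read from the probe set of that gene alone with the highest mean over all arrays. All 10 were measured, 6 by a single probe set and 4 (KLF4, LIN28B, SOX2 and POU5F1) by several, whose other probe sets served as a check. The study asked what GATA6, a zinc-finger transcription factor of the endoderm, does as H1 human embryonic stem cells (huESCs), an established pluripotent line, become definitive endoderm, the germ layer of gut, liver and pancreas. There were 16 arrays in 8 groups of 2, which the study describes as independent differentiations. Control cells carried an empty lentiviral vector and were sampled undifferentiated (day 0) and at days 3, 4 and 5. GATA6-depleted cells carried a lentiviral short hairpin RNA (shRNA) against GATA6, as a polyclonal line, and were sampled at days 3, 4 and 5, and a depleted day 0 sample was not analysed here. GATA6 Rescue cells were sampled at day 5 and held that shRNA plus a doxycycline-inducible GATA6 cDNA which the shRNA does not target. Per the labels only the Rescue cells were given doxycycline, at 60 ng/mL for 96 hours. Every differentiating group received BMP4 (10 ng/mL), FGF2 (20 ng/mL) and activin A (50 ng/mL) for 2 days and then activin A alone.

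Pluripotent cells can form all germ layers of the embryo, and a small circuit of transcription factors holds them in that state. OCT4 (the product of POU5F1), SOX2 and NANOG bind together at many enhancers, their own included, and are joined by further transcription factors and by the RNA-binding LIN28 proteins, which block maturation of the let-7 microRNAs. When huESCs enter the endoderm lineage this circuit is taken down gene by gene, and in human cells NANOG and OCT4 persist into the mesendoderm stage while SOX2 is lost early.

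Values are robust multi-array average (RMA) levels on the log2 scale. A difference is given with its standard error (SE) from a limma model of all 16 arrays, and a gene was called, or said to rise or fall, where p fell below 0.05 after Benjamini-Hochberg adjustment across all 18132 genes. A level near the lower quartile of an array (2.944 to 3.061) is close to background, and the lowest level of any factor on any array was 3.42, in KLF4. In bulk RNA, fewer cells of a type and less RNA per cell cannot be told apart. GATA6 itself lay at 1.72 and 1.86 in control cells at day 0 and at 11.44 to 11.60 on the 6 later control arrays. In depleted cells it was lower by 1.69 ± 0.29, 4.21 ± 0.29 and 5.03 ± 0.29 at days 3, 4 and 5, and the Rescue arrays were at 8.43 and 8.31, higher than depleted cells of day 5 by 1.88 ± 0.29 (adjusted p = 0.000168) but at 11.2% of control (-3.15 ± 0.29, adjusted p = 1.08e-05). Whether the probes of this 3′ array read the transgene cDNA as well as the endogenous transcript was not examined. The total GATA6 level in Rescue cells is therefore not settled by this probe set. The paper places the shRNA target in the 3′ untranslated region, and reports GATA6 overexpression in Rescue endoderm given doxycycline. Its stated doses differ from that of the labels. The mean level of 8 definitive endoderm markers was 3.52 to 3.64 at day 0, 9.97 to 10.28 in control, 6.20 to 6.26 in depleted and 9.25 to 9.30 in Rescue cells at day 5. On 2 points the arrays differed outside the genes of interest. The hybridisation control bioB read 7.66 to 7.74 on the day 0 arrays and 7.26 to 7.29 on the Rescue arrays, against 8.39 to 8.96 on the other 12, and its part in the results that use those groups was not tested. The Rescue pair also lay closer together (SD over genes 0.1045) than any other pair (0.1634 to 0.2449), so results with Rescue are given as well with its arrays counted as 1 sample where that changed a call.

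**Figure D1:**
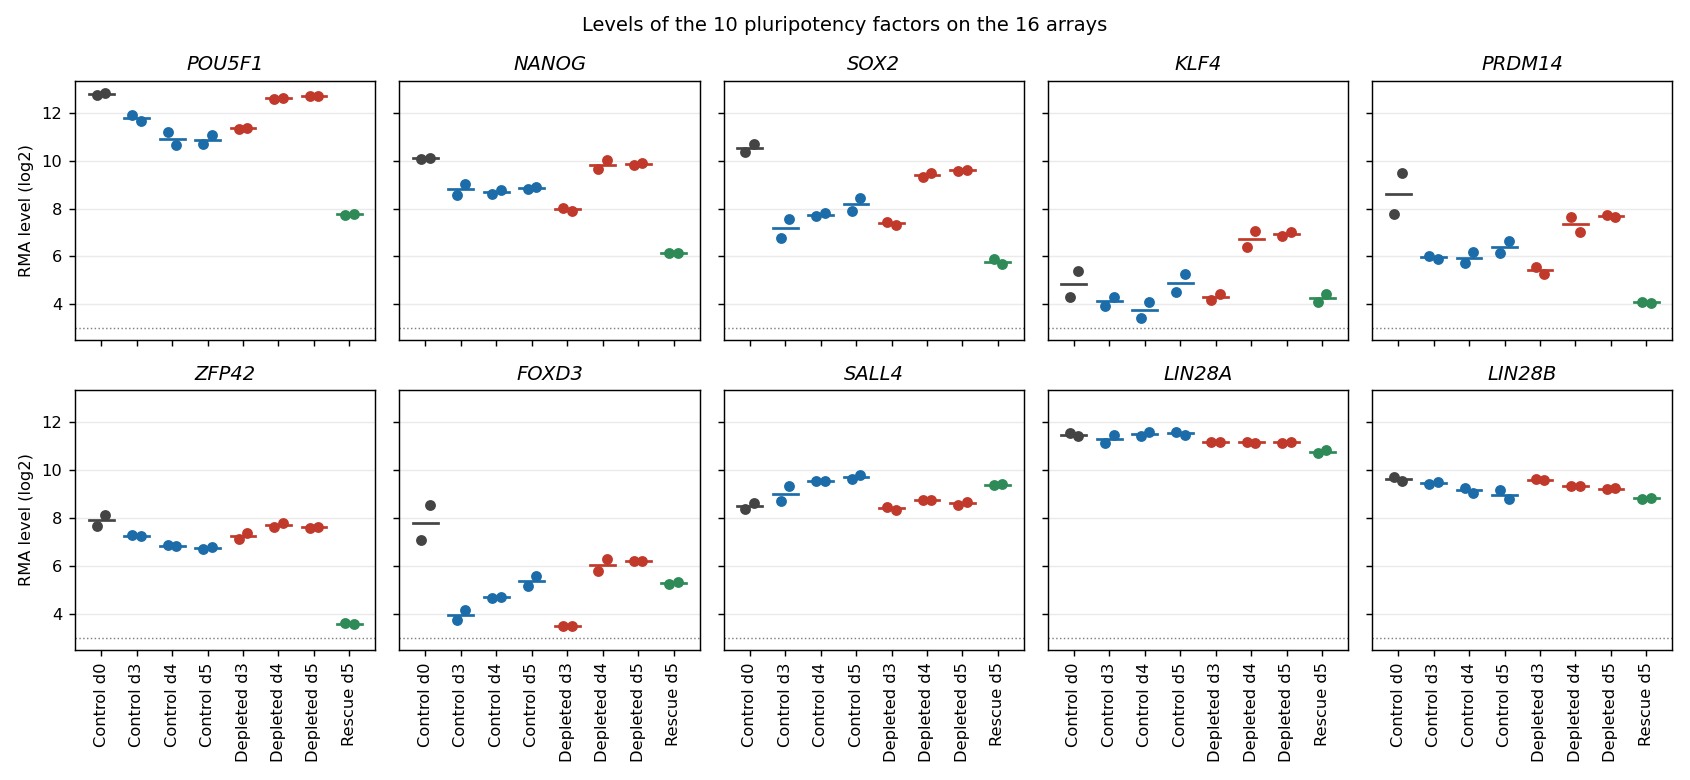
RMA levels (log2) of the 10 factors, 1 panel per gene, with the 8 groups along the horizontal axis. Points are single arrays, short lines are the means of 2 arrays, and the dotted line at 3 marks about the lower quartile of an array. POU5F1 is at 12.59 to 12.70 in depleted cells at days 4 and 5 and at 7.73 to 7.79 in Rescue cells.

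In control cells most of the circuit fell by day 3 and stayed low. Against day 0, 6 of the 10 factors fell and 1 rose at day 3, 8 fell and 1 rose at day 4, and 7 fell and 1 rose at day 5. Of all genes tested, 14.6% fell and 13.2% rose at day 3, 17.5% fell and 14.2% rose at day 4, and 18.1% fell and 15.9% rose at day 5. The median change of the factors was -0.85, -1.24 and -1.20 at the 3 days, against -0.01, -0.00 and -0.04 over all genes. SALL4 was the factor that rose. SOX2, FOXD3 and PRDM14 had the largest falls at each of the 3 days, POU5F1, NANOG and ZFP42 fell less at day 3, and LIN28A was not called at any day.

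POU5F1 encodes OCT4, the POU-homeodomain factor without which pluripotency is not kept. Its level was 12.74 and 12.83 at day 0, 11.90 and 11.66 at day 3, 11.18 and 10.65 at day 4, and 10.68 and 11.05 at day 5. The day 4 and day 5 arrays overlapped, and every later control array was below both day 0 arrays. The falls were 1.00 ± 0.17 at day 3 (adjusted p = 5.37e-04), 1.87 ± 0.17 at day 4 (adjusted p = 2.5e-06) and 1.92 ± 0.17 at day 5 (adjusted p = 1.77e-06), so that 26.4% of the day 0 level was left on the linear scale. POU5F1 was the factor called between control days 3 and 4 (-0.86 ± 0.17, adjusted p = 0.0176), a step in which 3.13% of all genes were called in either direction. Leaving out control day 4 replicate 2 (-0.60, adjusted p = 0.161) or control day 3 replicate 1 (-0.74, adjusted p = 0.119), or fitting those groups alone (adjusted p = 0.232), removed that call. No factor was called between control days 4 and 5 by limma, 1 had an unadjusted p under 0.05, and 0.237% of all genes were called.

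NANOG, a homeodomain factor that stabilises the pluripotent state, stopped falling earlier. It was at 10.07 and 10.13 at day 0, 8.57 and 9.03 at day 3, 8.61 and 8.79 at day 4, and 8.83 and 8.89 at day 5. The control groups of days 3, 4 and 5 overlapped one another, all below day 0. The difference from day 0 was -1.30 ± 0.16 at day 3 (adjusted p = 4.68e-05) and -1.24 ± 0.16 at day 5 (adjusted p = 4.91e-05), with 42.3% of the day 0 level left. The probe set used for NANOG and those used for POU5F1 and ZFP42 carry the suffix that marks probes with matches in other transcripts, so their levels may hold signal of pseudogenes and the share of each copy is uncertain. A probe set assigned to NANOG together with NANOGP8 and NANOGP1 gave -1.23 between control days 5 and 0.

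SOX2, an HMG-box factor that partners OCT4 and later marks neural tissue, was lowest at day 3 within its own control course. Its level was 10.35 and 10.69 at day 0, 6.79 and 7.58 at day 3, 7.67 and 7.82 at day 4, and 7.89 and 8.44 at day 5. At day 3 it was at 9.92% of day 0, and its group means were higher at days 4 (14.7%) and 5 (19.6%), although neither step was called. The falls from day 0 were 3.33 ± 0.23 (adjusted p = 3.71e-07), 2.77 ± 0.23 (adjusted p = 1.39e-06) and 2.35 ± 0.23 (adjusted p = 5.2e-06) at days 3, 4 and 5. The other 2 SOX2 probe sets fell by 1.95 ± 0.14 and 1.99 ± 0.22 at day 5.

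The promoters of NANOG and SOX2 are shown because their genes fell in the control course and were higher in late depleted than in control cells. OCT4 and SOX2 proteins are also known to act on both. They are the 250 bases before the start site in RefSeq (build GRCh38.p14), NANOG from chr12:7789152-7789401 and SOX2 from chr3:181711675-181711924, both on the plus strand. Capitals mark matches to the octamer part ATGCAA and the SOX motif CATTGT, searched on both strands.
NANOG: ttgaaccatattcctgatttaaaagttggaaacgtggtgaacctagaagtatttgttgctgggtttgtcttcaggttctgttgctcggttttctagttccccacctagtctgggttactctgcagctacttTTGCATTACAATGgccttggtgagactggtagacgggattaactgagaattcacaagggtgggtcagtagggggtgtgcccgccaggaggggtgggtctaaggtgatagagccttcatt
SOX2: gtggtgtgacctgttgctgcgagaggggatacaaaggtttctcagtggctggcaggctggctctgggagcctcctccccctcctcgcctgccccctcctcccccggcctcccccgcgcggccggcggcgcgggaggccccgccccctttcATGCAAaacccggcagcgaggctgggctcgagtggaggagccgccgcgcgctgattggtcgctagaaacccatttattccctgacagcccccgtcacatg
In NANOG both motifs lay on the minus strand, 1 base apart, from -119 to -107 relative to the start site, with the octamer part at -119 to -114 and the SOX motif at -112 to -107. The search itself ran over windows from 250 bases before to 50 after the start, in the factors as in all 35116 RefSeq promoters, of which 10.1% held the octamer part, 10.8% the SOX motif and 4 windows, or 0.0114%, both in that arrangement. In SOX2 the octamer part lay on the plus strand at -100 to -95. Windows were found for 6 of the 10 factors (NANOG, SOX2, KLF4, ZFP42, FOXD3 and LIN28B). Those of KLF4, ZFP42 and FOXD3 held no match to any motif searched. ZFP42 also fell in the control course and was higher in late depleted cells, and its promoter is not printed. LIN28B had 2 windows, for different start sites. The GATA motif AGATAA, in 10.3% of all windows, matched 1 of these and no other factor, at -195 to -190 and at -122 to -117 on opposite strands, and TGATAA, in 7.53%, matched none. The other LIN28B window held the SOX motif at -140 to -135. A match is a run of letters and was not read as a bound site.

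Among the other transcription factors, FOXD3 and PRDM14 fell most. FOXD3, a forkhead factor of pluripotent and neural crest cells, was at 7.07 and 8.53 at day 0, 3.75 and 4.15 at day 3, 4.67 and 4.72 at day 4, and 5.18 and 5.58 at day 5. Like SOX2 it was lowest at day 3. It had fallen by 3.85 ± 0.34 at day 3 (adjusted p = 3e-06) and by 2.43 ± 0.34 at day 5 (adjusted p = 1.1e-04). PRDM14, a PR-domain factor of pluripotent and germ cells that represses differentiation genes, was at 7.76 and 9.47 at day 0, 6.04 and 5.90 at day 3, 5.74 and 6.17 at day 4, and 6.16 and 6.65 at day 5. The day 0 replicates of PRDM14 differed by 1.71, those of FOXD3 by 1.46 and those of KLF4 by 1.09, and in each the replicate 2 array was the higher. The fall of PRDM14 at day 5 was 2.22 ± 0.40 (adjusted p = 8.15e-04) and measured -1.36 without control day 0 replicate 2 (adjusted p = 0.00239).

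ZFP42 encodes the zinc-finger protein REX1, a marker of the undifferentiated state. It was at 7.65 and 8.14 at day 0, 7.28 and 7.23 at day 3, 6.86 and 6.85 at day 4, and 6.69 and 6.78 at day 5, so each control group lay below the one before it without overlap. The fall was 0.64 ± 0.15 at day 3 (adjusted p = 0.00533) and 1.16 ± 0.15 at day 5 (adjusted p = 4.83e-05). Without control day 0 replicate 2 the day 3 value was -0.40 (adjusted p = 0.0561), and with those groups alone in the model the adjusted p was 0.105.

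KLF4, a zinc-finger factor used in reprogramming and more active in naive than in primed pluripotent cells, was low throughout the control course. It was at 4.29 and 5.38 at day 0, 3.95 and 4.32 at day 3, 3.42 and 4.08 at day 4, and 4.50 and 5.26 at day 5. Days 0 and 3 overlapped, as did days 3 and 4, and both day 4 arrays were below both arrays of days 0 and 5. It was called lower at day 4 (-1.09 ± 0.36, adjusted p = 0.0325), and this call disappeared without control day 0 replicate 2 (-0.54, adjusted p = 0.32), without control day 4 replicate 1 (-0.76, adjusted p = 0.246) and with the mean of both KLF4 probe sets (-0.61, adjusted p = 0.0854) and with those groups alone (adjusted p = 0.129); without control day 0 replicate 1 the value was -1.64. At day 5 the difference was 0.04 ± 0.36 (adjusted p = 0.945).

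SALL4, a zinc-finger factor of pluripotent cells and of extraembryonic endoderm in the mouse, rose while most of the others fell. It was at 8.38 and 8.63 at day 0, 8.70 and 9.32 at day 3, 9.53 and 9.55 at day 4, and 9.64 and 9.78 at day 5. Both day 5 arrays were above both day 4 arrays, and all of these were above day 0. The rise was 1.04 ± 0.17 at day 4 (adjusted p = 3.47e-04) and 1.20 ± 0.17 at day 5 (adjusted p = 9.82e-05), which is 230% of the day 0 level. The day 3 rise (0.50 ± 0.17, adjusted p = 0.0389) did not hold without control day 3 replicate 2 (0.19, adjusted p = 0.389) and without control day 0 replicate 1 (0.37, adjusted p = 0.213), and measured 0.82 without control day 3 replicate 1. It was also lost with those groups alone (adjusted p = 0.265) and with the Rescue arrays as 1 sample (adjusted p = 0.056).

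The LIN28 paralogs, which bind let-7 precursors, moved little. LIN28A was at 11.54 and 11.42 at day 0 and between 11.13 and 11.59 on the 6 later control arrays, and its day 5 difference was 0.05 with a 95% interval of -0.22 to 0.32. LIN28B was at 9.72 and 9.53 at day 0, 9.43 and 9.51 at day 3, 9.27 and 9.03 at day 4, and 9.17 and 8.78 at day 5. It fell by 0.65 ± 0.14 at day 5 (adjusted p = 0.00202), which missed the threshold in a model of the groups compared alone (adjusted p = 0.0554). The day 4 fall (0.48 ± 0.14, adjusted p = 0.0158) did not hold without control day 4 replicate 2 (-0.36, adjusted p = 0.138) and without control day 0 replicate 1 (-0.38, adjusted p = 0.103), and with those groups alone (adjusted p = 0.0865).

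In GATA6-depleted cells 1 factor, NANOG, was called at day 3, and most were higher than control by day 4. At day 3, 0 of the 10 were higher by limma and 1 was lower (3 had an unadjusted p under 0.05, all 3 below control), where 1.79% of all genes were higher and 1.96% lower. At day 4, 7 were higher and 1 lower (14.8% and 13.3% of all genes), and at day 5, 6 were higher and 2 lower (16.5% and 16% of all genes). The median difference of the factors was -0.29, 1.24 and 0.94 at days 3, 4 and 5. POU5F1, NANOG, SOX2, KLF4, PRDM14 and ZFP42 were higher at both days 4 and 5, and SALL4 was lower at both. Definitive endoderm markers moved with these results: 8 of 8 were lower in depleted cells at days 4 and 5, with CXCR4, HHEX, GSC and SOX17 lower by 6.11 ± 0.42, 5.43 ± 0.36, 4.37 ± 0.29 and 4.15 ± 0.19 at day 5. The paper reports apoptosis and a marked drop in cell number in depleted cells at these days. What part the loss of endoderm cells had in the levels of the factors was not tested. By the thresholds of the study's methods (unadjusted p no higher than 0.01 together with a difference whose z-score reaches 3 in size among all probe sets, which 0.407% to 2.21% of probe sets passed in the comparisons), 1 of the 10 was called at day 4 and 0 at day 5.

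**Figure D2:**
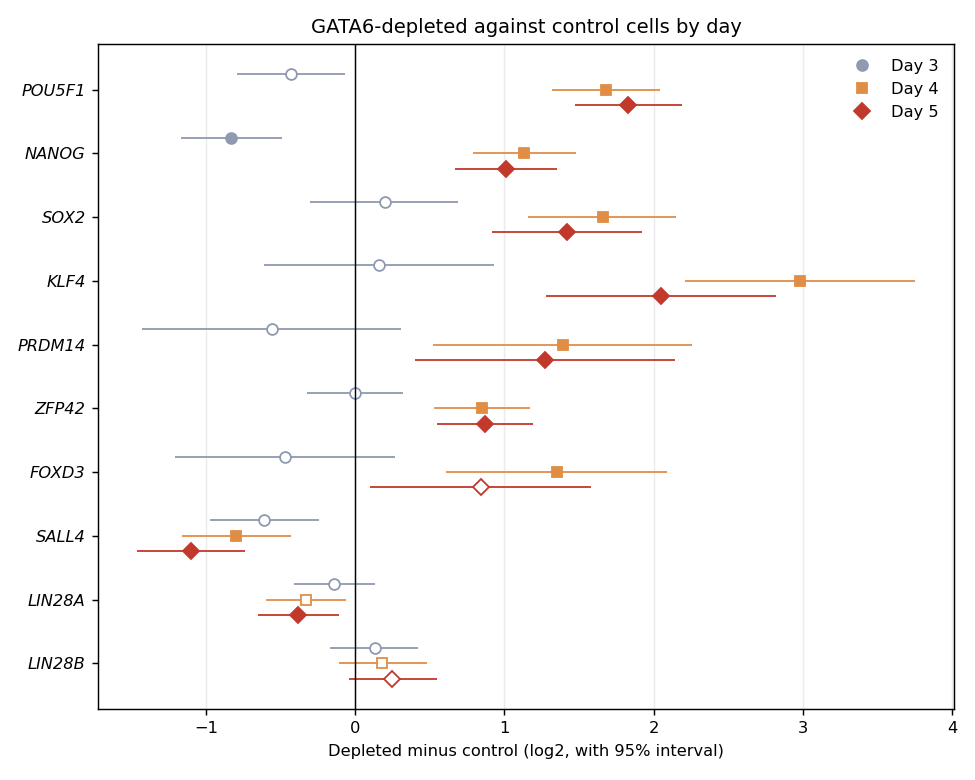
Difference between GATA6-depleted and control cells (log2) for each factor at days 3, 4 and 5, from 2 arrays per group, with 95% intervals. Filled symbols passed the adjusted threshold and open symbols did not; at day 3 NANOG alone is filled, at -0.83, and at days 4 and 5 POU5F1, NANOG, SOX2, KLF4, PRDM14 and ZFP42 lie to the right of 0 and SALL4 to the left.

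POU5F1 in depleted cells was at 11.34 and 11.36 at day 3, 12.59 and 12.61 at day 4, and 12.70 and 12.69 at day 5. Its bulk level was thus below control day 0 at day 3 and higher at days 4 and 5 than at day 3. The difference from control was -0.43 ± 0.17 at day 3 (adjusted p = 0.197), 1.68 ± 0.17 at day 4 (adjusted p = 9.26e-06) and 1.83 ± 0.17 at day 5 (adjusted p = 3.81e-06), the last being 355% of control. The other POU5F1 probe set gave 1.66 ± 0.16 and 1.83 ± 0.16 at days 4 and 5.

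NANOG was at 8.03 and 7.91 at day 3, 9.64 and 10.02 at day 4, and 9.82 and 9.92 at day 5 of depletion. Both day 3 arrays were below every control array, and all 4 later arrays were above every control array of days 3 to 5. It was the factor called at day 3, lower by 0.83 ± 0.16 (adjusted p = 0.0119), a call lost without control day 3 replicate 2 (-0.60, adjusted p = 0.0937) and without either depleted array of that day (-0.89, adjusted p = 0.055, without replicate 1 and -0.77, adjusted p = 0.0856, without replicate 2), and in a model of the groups compared alone (adjusted p = 0.133). At days 4 and 5 it was higher by 1.13 ± 0.16 (adjusted p = 1.41e-04) and 1.01 ± 0.16 (adjusted p = 3e-04).

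SOX2 was at 7.44 and 7.32 at day 3, 9.32 and 9.48 at day 4, and 9.58 and 9.59 at day 5. At day 3 both depleted arrays lay between the control arrays (0.20 ± 0.23), and at days 4 and 5 they were above all control arrays of those days. The differences were 1.66 ± 0.23 (adjusted p = 1.39e-04) and 1.42 ± 0.23 (adjusted p = 3.97e-04). Its other probe sets gave 0.59 ± 0.14 and 1.74 ± 0.22 at day 4 and 0.83 ± 0.14 and 1.74 ± 0.22 at day 5, all called.

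By the probe set used for each gene, KLF4 had the largest difference of the 10 at both days. It was at 4.17 and 4.42 at day 3, 6.38 and 7.07 at day 4, and 6.86 and 7.01 at day 5 in depleted cells. All 4 late arrays were above every other array of the series for this gene. The differences were 2.98 ± 0.36 (adjusted p = 4.14e-05) and 2.05 ± 0.36 (adjusted p = 6.39e-04), or 788% and 415% of control. The other KLF4 probe set gave 0.54 ± 0.22 at day 4 (adjusted p = 0.103) and 0.92 ± 0.22 at day 5 (adjusted p = 0.00699). Both values were below those of POU5F1 (1.68 ± 0.17 and 1.83 ± 0.17). The mean of the KLF4 probe sets gave 1.76 at day 4.

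PRDM14 was at 5.57 and 5.27 at day 3, 7.66 and 7.03 at day 4, and 7.71 and 7.63 at day 5. Its late depleted arrays were above all control arrays of days 3 to 5. It was higher than control by 1.39 ± 0.40 at day 4 (adjusted p = 0.0198) and by 1.27 ± 0.40 at day 5 (adjusted p = 0.0281). Single arrays decided both calls: the day 4 difference no longer passed at 1.17 (adjusted p = 0.134) when replicate 1 of the control was left out or at 1.08 (adjusted p = 0.154) when replicate 1 of the depleted cells was. The day 5 difference no longer passed at 1.02 (adjusted p = 0.166) without replicate 1 of the control, nor at 1.23 (adjusted p = 0.111) and 1.30 (adjusted p = 0.0893) without replicate 1 and 2 of the depleted cells.

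ZFP42 was at 7.11 and 7.39 at day 3, 7.64 and 7.77 at day 4, and 7.58 and 7.63 at day 5. The late arrays lay within or just below the range of control day 0. The difference from control was -0.00 ± 0.15 at day 3 (95% interval -0.32 to 0.32), 0.85 ± 0.15 at day 4 (adjusted p = 7.58e-04) and 0.87 ± 0.15 at day 5 (adjusted p = 5.58e-04).

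FOXD3 was at 3.48 on both arrays at day 3, close to background, at 5.79 and 6.30 at day 4 and at 6.22 on both arrays at day 5. It was higher than control by 1.35 ± 0.34 at day 4 (adjusted p = 0.00937), which did not hold without control day 4 replicate 1 (1.32, adjusted p = 0.051) and without depleted day 4 replicate 2 (1.09, adjusted p = 0.0943). At day 5 the difference of 0.84 ± 0.34 did not pass (adjusted p = 0.0797), although the arrays did not overlap, and it passed when day 0 and Rescue were left out of the model (adjusted p = 0.00662) and in a model of control and depleted day 5 alone (adjusted p = 0.0102).

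SALL4 was lower than control. In depleted cells it was at 8.47 and 8.33 at day 3, 8.75 and 8.74 at day 4, and 8.56 and 8.65 at day 5. It lay close to the control day 0 level, while control cells had gone up. It was lower than control by 0.80 ± 0.17 at day 4 (adjusted p = 0.00289) and by 1.10 ± 0.17 at day 5 (adjusted p = 2.31e-04), or 46.6% of control. At day 3 the difference was -0.61 ± 0.17 (adjusted p = 0.0683), and it passed without control day 3 replicate 1 (-0.92, adjusted p = 0.00372), with cyclic loess scaling (adjusted p = 0.0496) and with trended robust moderation (adjusted p = 0.0388). Without control day 3 replicate 2 it was -0.30.

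LIN28A was between 11.13 and 11.19 on all 6 depleted arrays. At day 4 its difference of -0.33 ± 0.12 (adjusted p = 0.064) passed with cyclic loess, trended robust moderation, the 25th percentile filter and the mean of probe sets per gene (adjusted p = 0.017 to 0.0484). It was lower than control by 0.38 ± 0.12 at day 5 (adjusted p = 0.0323), a call lost when any 1 of the 4 arrays was left out (-0.44 to -0.32, adjusted p = 0.0548 to 0.155) and in the model of those groups alone (adjusted p = 0.0743). LIN28B was at 9.62 and 9.57, 9.35 and 9.32, and 9.19 and 9.25 at days 3, 4 and 5, and was not called at any day. Its difference at day 5 was 0.25 with a 95% interval of -0.04 to 0.55, and 0.07 ± 0.24 by its other probe set.

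The change between days was tested directly. Within depleted cells 7 of the 10 factors rose from day 3 to day 4 and 0 fell. Of all 18132 genes, 10% rose and 1716 genes fell. The rises were 2.56 ± 0.34 for FOXD3, 2.43 ± 0.36 for KLF4, 2.02 ± 0.23 for SOX2 and 1.93 ± 0.40 for PRDM14. For NANOG, POU5F1 and ZFP42 they were 1.86 ± 0.16, 1.25 ± 0.17 and 0.45 ± 0.15. The rise of ZFP42 (adjusted p = 0.0483) was lost without depleted day 3 replicate 1 (0.32, adjusted p = 0.319), day 4 replicate 1 (0.52, adjusted p = 0.0978) or day 4 replicate 2 (0.39, adjusted p = 0.246), with those groups alone (adjusted p = 0.0681), with every probe set tested on its own (adjusted p = 0.0604) and with Rescue as 1 sample (adjusted p = 0.0712). From day 4 to day 5 limma called 0 of the 10, none had an unadjusted p under 0.05, and 0.0827% of all genes were called. The depletion effect itself, the difference between depleted and control cells, was higher at day 4 than at day 3 for the same 7 factors (8.35% of all genes), by 0.86 ± 0.21 for ZFP42 to 2.82 ± 0.50 for KLF4. For KLF4 the other probe set gave 0.54 ± 0.22 for the rise from day 3 to day 4 (adjusted p = 0.132) and 0.41 ± 0.31 for the difference of effects (adjusted p = 0.488), and the mean of both probe sets gave 1.48 and 1.62. Between days 3 and 5 it was higher for 6 (8.63% of all genes), all of these but FOXD3 (1.31 ± 0.48, adjusted p = 0.083). Between days 4 and 5 limma called 0 of the 10, with none at an unadjusted p under 0.05 and 0.0938% of all genes called. For SALL4 the effect did not differ between days by this test, with -0.50 ± 0.24 from day 3 to day 5 (adjusted p = 0.179). The steps and effects share arrays with the comparisons above and are not separate evidence.

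Several of these differences of effects rested on single arrays. For PRDM14 the difference between days 5 and 3 (adjusted p = 0.0422) was lost without any 1 of its 8 arrays (1.58 to 2.07, adjusted p = 0.0518 to 0.133), and that between days 4 and 3 (adjusted p = 0.0355) was lost in 7 of 8 such fits, all but the fit without depleted day 4 replicate 2 (1.63 to 2.27, adjusted p = 0.0435 to 0.128). Both were also lost with Rescue as 1 sample (adjusted p = 0.0603 and 0.052), and the former with trended robust moderation (adjusted p = 0.0509). For FOXD3 between days 4 and 3 (1.82 ± 0.48, adjusted p = 0.0226) 6 of 8 fits lost the call (1.56 to 2.07, adjusted p up to 0.0969), all but those without control day 3 replicate 1 and depleted day 4 replicate 1. For SOX2 between days 5 and 3 (1.22 ± 0.33, adjusted p = 0.0203) it did not hold without control day 3 replicate 2 (0.83, adjusted p = 0.0567), control day 5 replicate 1 (0.95, adjusted p = 0.0834), depleted day 3 replicate 2 (1.16, adjusted p = 0.0665) and either depleted day 5 array (adjusted p = 0.0565 and 0.0563), and with those groups alone (adjusted p = 0.0572). For KLF4 between the same days (1.90 ± 0.50, adjusted p = 0.0199) it did not hold without control day 3 replicate 2 (1.71), control day 5 replicate 1 (1.52), depleted day 3 replicate 1 (1.77) and depleted day 5 replicate 2 (1.82). ZFP42 lost its calls without depleted day 3 replicate 1 (0.72 and 0.74, adjusted p = 0.0669 and 0.0529) and, for days 4 and 3, without depleted day 4 replicate 2 (0.79, adjusted p = 0.0643). Those of POU5F1 and NANOG held in every fit, at 2.11 ± 0.23 and 1.96 ± 0.22 between days 4 and 3 and at 2.26 ± 0.23 and 1.84 ± 0.22 between days 5 and 3.

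Late depleted cells were then set against undifferentiated control cells, which carried the empty vector. Line and day differ together in these comparisons, and the part of each was not tested. At day 4, 1 factor was higher and 3 were lower than at day 0 (7.88% and 8.47% of all genes), and at day 5, 1 was higher and 2 lower (8.8% and 9.71%). POU5F1 was at 93.9% of the control day 0 level at day 5 (-0.09 with a 95% interval of -0.45 to 0.27). NANOG was at 85.3% (-0.23, -0.57 to 0.11) and ZFP42 at 81.7% (-0.29, -0.61 to 0.03). Without control day 0 replicate 1 ZFP42 measured -0.54 and was called lower (adjusted p = 0.0204). SOX2 reached 52.5% (-0.93 ± 0.23, adjusted p = 0.0132) and FOXD3 33.3% (-1.59 ± 0.34, adjusted p = 0.00586), and both were also below day 0 at day 4, by 1.11 ± 0.23 and 1.76 ± 0.34. The day 5 call of SOX2 did not hold without control day 0 replicate 2 (-0.76, adjusted p = 0.0889) or either depleted array of that day (adjusted p = 0.0691 and 0.0661), and a further SOX2 probe set gave -0.25 ± 0.22. Without control day 0 replicate 2 FOXD3 measured -1.03 at day 4 and -0.86 at day 5, both still called, but neither call held in a model of the groups compared alone (adjusted p = 0.109 and 0.0899). PRDM14 was lower at day 4 (-1.27 ± 0.40, adjusted p = 0.0483), but not without control day 0 replicate 2 (-0.42, adjusted p = 0.379) or depleted day 4 replicate 1 (-1.59, adjusted p = 0.0653) or 2 (-0.96, adjusted p = 0.283), and measured -2.13 without control day 0 replicate 1. It was also lost with those groups alone (adjusted p = 0.269), cyclic loess (adjusted p = 0.0514), trended robust moderation (adjusted p = 0.0569) and Rescue as 1 sample (adjusted p = 0.068). At day 5 PRDM14 was -0.95 ± 0.40 from day 0 (adjusted p = 0.13) and was called at -1.80 without control day 0 replicate 1 (adjusted p = 0.00104). KLF4 was above day 0 by 1.89 ± 0.36 at day 4 (adjusted p = 0.00284) and 2.10 ± 0.36 at day 5 (adjusted p = 0.00128), which is 428% of day 0. Its other probe set gave 0.41 ± 0.22 at day 4 (adjusted p = 0.272) and 0.63 ± 0.22 at day 5 (adjusted p = 0.0735), the mean of both probe sets 1.15 and 1.36, and the day 4 call did not hold in a model of those groups alone (adjusted p = 0.0628).

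**Figure D3:**
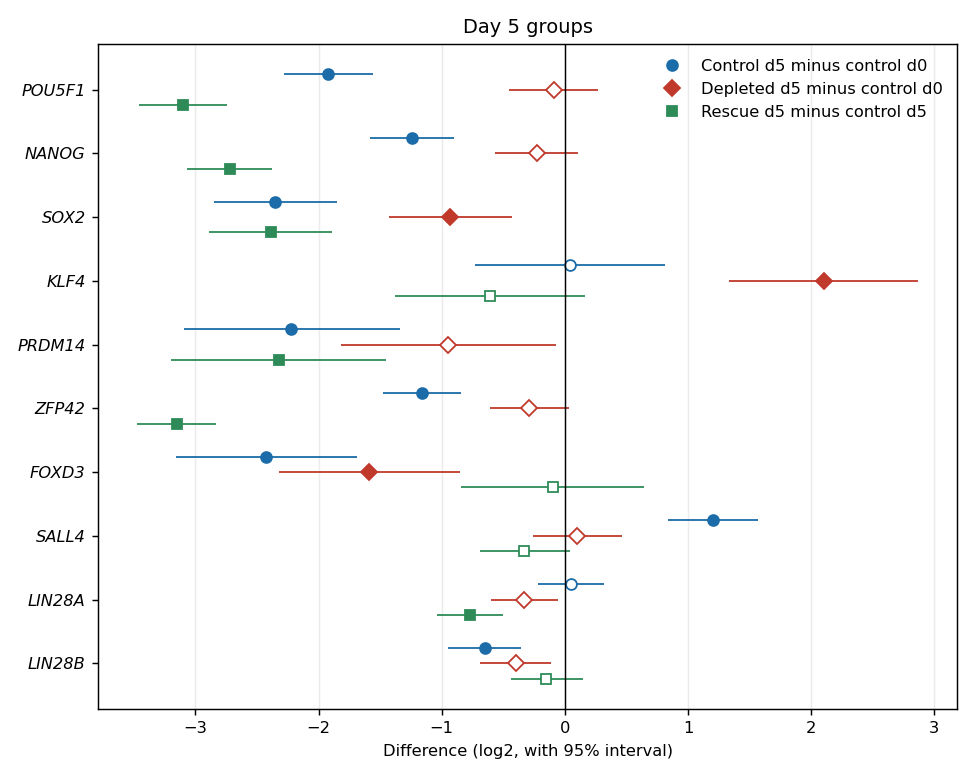
Differences (log2) at day 5 for each factor, from 2 arrays per group with 95% intervals. They are control and depleted cells, each against control day 0, and Rescue against control cells. Filled symbols passed the adjusted threshold; POU5F1, NANOG and ZFP42 in depleted cells lie within 0.29 of day 0, whereas the same genes in Rescue cells lie 2.72 to 3.15 below control.

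In Rescue cells most of the circuit was lower than in depleted cells, and 6 factors were also below the level of control endoderm. Against depleted cells at day 5, 9 of the 10 factors fell and 1 rose in Rescue cells, where 17.6% of all genes fell and 21.9% rose, and the median was -3.13 against -0.03 over all genes. Against control cells at day 5, 6 were lower (9.57% of all genes) and 0 were higher (2494 of 18132 genes). The median was -1.55 against 0.02. In the latter comparison 6 had an unadjusted p under 0.05, and 6 were called with the Rescue arrays as 1 sample. The doxycycline given to Rescue cells alone, the bioB signal and the Rescue line itself cannot be told apart from the GATA6 cDNA in these comparisons. The 8 definitive endoderm markers all rose against depleted cells (median 2.77), and 5 of the 8 were below control.

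POU5F1 was at 7.73 and 7.79 on the Rescue arrays, 3.27% of the depleted level (-4.93 ± 0.17, adjusted p = 2.46e-09) and 11.6% of the control level (-3.10 ± 0.17, adjusted p = 1.4e-07). NANOG was at 6.14 and 6.13, lower than depleted cells by 3.73 ± 0.16 (adjusted p = 1.04e-08) and than control by 2.72 ± 0.16 (adjusted p = 2.18e-07). SOX2 was at 5.88 and 5.68, lower by 3.81 ± 0.23 (adjusted p = 9.73e-08) and 2.39 ± 0.23 (adjusted p = 1.64e-05). For each of the 3 genes both Rescue arrays were below all other 14 arrays. The further POU5F1 probe set gave -3.01 ± 0.16 against control, the 2 further SOX2 probe sets -0.54 ± 0.14 and -1.69 ± 0.22, the mean of the SOX2 probe sets -1.54, and the probe set shared by NANOG and its pseudogenes -3.05.

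ZFP42 was at 3.60 and 3.58, near background, and PRDM14 at 4.08 and 4.07. ZFP42 was 6.17% of the depleted (-4.02 ± 0.15, adjusted p = 2.71e-09) and 11.3% of the control level (-3.15 ± 0.15, adjusted p = 5.51e-08). PRDM14 was lower by 3.59 ± 0.40 (adjusted p = 1.35e-05) and 2.32 ± 0.40 (adjusted p = 0.00126). Here too both Rescue arrays were the lowest of the series. KLF4, at 4.12 and 4.42, fell against depleted cells by 2.66 ± 0.36 (adjusted p = 5.9e-05) and lay within the range of the control arrays of days 3 to 5 (-0.61 ± 0.36 against control day 5, adjusted p = 0.259).

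FOXD3 went another way. At 5.25 and 5.31 it lay between the control day 5 arrays (-0.10 with a 95% interval of -0.84 to 0.64), and its fall against depleted cells was small (0.94 ± 0.34, adjusted p = 0.0441). That fall was lost without any 1 of its 4 arrays (-0.96 to -0.91, adjusted p = 0.125 to 0.147) and with the Rescue arrays as 1 sample (adjusted p = 0.139). SALL4 was at 9.36 and 9.40, higher than in depleted cells by 0.78 ± 0.17 (adjusted p = 0.00227) and -0.33 ± 0.17 from control (adjusted p = 0.196), so it was the factor that rose. LIN28A, at 10.69 and 10.83, was below all other arrays and lower than control by 0.77 ± 0.12 (adjusted p = 7.61e-04). Against depleted cells LIN28A (-0.39 ± 0.12, adjusted p = 0.0238) and LIN28B (8.80 and 8.85, -0.40 ± 0.14, adjusted p = 0.032) were called as well. Those calls were lost with the Rescue arrays as 1 sample (adjusted p = 0.0896 and 0.117), for LIN28B with the mean of its probe sets (adjusted p = 0.0625) and without any 1 of the 4 arrays (-0.43 to -0.37, adjusted p = 0.081 to 0.138), and for LIN28A without depleted replicate 1 (-0.40, adjusted p = 0.078), depleted replicate 2 (-0.38, adjusted p = 0.0887) or Rescue replicate 1 (-0.32, adjusted p = 0.164).

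Across the 8 groups the factors fell into those with wide and those with narrow ranges. The group means of POU5F1 spanned 5.02, SOX2 4.74, PRDM14 4.54, FOXD3 4.32, ZFP42 4.31, NANOG 3.96 and KLF4 3.19, at percentiles 96.5 to 99.3 of the span over all genes. SALL4 spanned 1.31 (percentile 79.1), LIN28B 0.80 (percentile 59.6) and LIN28A 0.77 (percentile 58). The order of the groups was much alike in the core circuit: day 0 was highest in POU5F1, NANOG, SOX2, PRDM14, ZFP42 and FOXD3, the late depleted groups came next, and Rescue was lowest in all of these except FOXD3. Neighbours in that order overlapped for control days 4 and 5 in POU5F1 and for depleted and control day 3 in SOX2. In NANOG depleted days 5 and 4 overlapped, as did control days 5, 3 and 4. In PRDM14 the overlaps were depleted days 5 and 4 and control days 3 and 4, in FOXD3 depleted days 5 and 4 and control day 5 with Rescue, and in ZFP42 day 0 with depleted day 4 and control with depleted day 3. KLF4 was highest in depleted cells of days 5 and 4, and its other 6 groups formed a chain of overlaps. SALL4 was highest in control cells of day 5 and LIN28A overlapped in every group but Rescue. As a description over the 8 group means, which share 1 normalisation and include 2 late groups of depleted cells, Pearson's r was 0.99 for SOX2 with PRDM14, 0.98 for POU5F1 with ZFP42, 0.95 for POU5F1 with NANOG, 0.35 for POU5F1 with FOXD3, -0.61 for POU5F1 with SALL4, -0.81 for SALL4 with LIN28B and 0.32 for LIN28A with LIN28B.

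The genes most like each factor, by r over the same 8 means among 5577 genes whose means spanned at least 1, were these. POU5F1 was most like POU5F1P3 (0.999), its pseudogene, which may read the same transcripts, then DPH5 (0.993) and NTHL1 (0.989). NANOG was most like TRIM71 (0.983), NANOGP1 (0.982, likewise a pseudogene) and GLDC (0.980). SOX2 was followed by JARID2 (0.989), MAP3K21 (0.986) and NFE2L3 (0.977), and PRDM14 by MAP3K21 (0.991), VSNL1 (0.989) and POLR3G (0.987). KLF4 was closest to EPAS1 (0.984), ESAM (0.979) and PABPC1L (0.976), ZFP42 to RNF44 (0.993), FOXN3 (0.990) and PANK3 (0.989), and FOXD3 to CDO1 (0.986), PPP2R2B (0.979) and SLC22A23 (0.978). SALL4 was closest to KCNH8 (0.996), REEP6 (0.981) and CLTRN (0.979), LIN28B to PSRC1 (0.990), CDCA3 (0.987) and CHRNA5 (0.983), and LIN28A to S100A4 (0.961), ST6GAL2 (0.960) and TMEM97 (0.944). Over the 16 arrays the first gene stayed first for POU5F1, SOX2, KLF4 and SALL4.

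Genes that work with these factors moved in both directions. Of 19 measured network partners 7 were higher and 7 lower in depleted than in control cells at day 5 (median 0.08). Of all genes, 16.5% were higher and 16% lower in that comparison. Against day 0, depleted cells of day 5 had 1 partner higher and 11 lower (median -0.51), beside 8.8% and 9.71% of all genes. GDF3, a TGF-beta family ligand, was lower in depleted cells by 2.51 ± 0.18, and LEFTY2 and LEFTY1, inhibitors of Nodal, by 1.82 ± 0.40 and 1.68 ± 0.31. PHC1, a Polycomb subunit, was higher by 1.42 ± 0.16. In Rescue cells 13 of the 19 were below control and 0 above (median -1.06). Of all 18132 genes, 9.57% were below control and 2494 genes above. Of 6 partners that also serve as markers of undifferentiated cells, 5 fell in control cells by day 5, where 18.1% of all genes fell. Against control at day 5, 3 of the 6 were higher in depleted cells: DPPA4 by 0.81 ± 0.15, L1TD1 by 0.80 ± 0.11 and ZSCAN10 by 0.76 ± 0.27. PODXL was the 1 that was lower (-0.50 ± 0.14). All 6 were below day 0 in depleted cells at day 5 (median -0.62), where 9.71% of all genes were lower. Their mean level was 9.82 to 9.92 at day 0, 8.64 to 8.88 in control, 9.03 to 9.13 in depleted and at most 8.23 in Rescue cells at day 5.

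**Figure D4:**
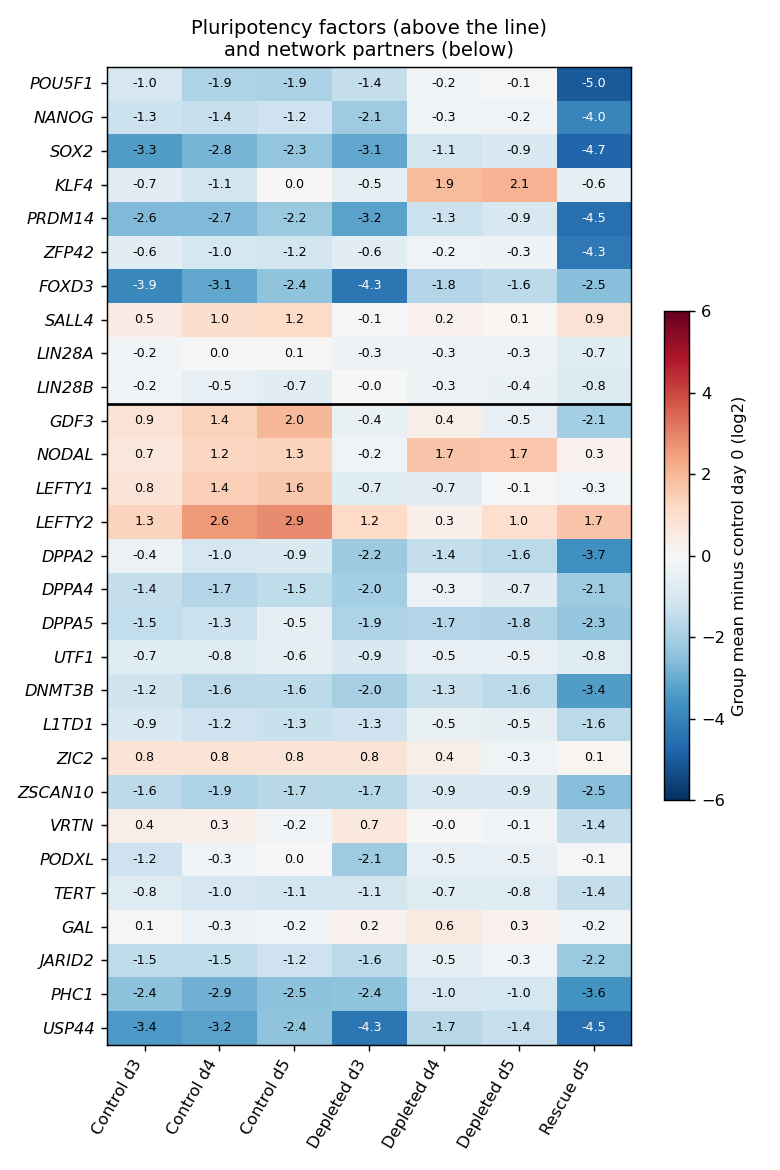
Group mean minus control day 0 (log2, 2 arrays per group) for the 10 factors, above the line, and 19 network partners, below it. Red is above and blue below day 0; the late depleted columns are paler than the control columns for SOX2, PRDM14, FOXD3, PHC1 and USP44, and the Rescue column is the bluest for POU5F1, SOX2, PRDM14, NANOG and ZFP42.

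Paralogs of the factors and the lists that follow showed both directions, and their counts at day 5 stand against 16.5% of all genes higher and 16% lower. Of 14 measured, 4 were higher and 2 lower in depleted cells at day 5 (median 0.13). SOX3, the closest relative of SOX2, was higher by 4.56 ± 0.31 and FOXD1, a forkhead paralog of FOXD3, by 3.66 ± 0.23. SALL3 was higher by 1.87 ± 0.28, opposite to SALL4, and PRDM1, a paralog of PRDM14 that acts in endoderm and germ cells, was lower by 2.92 ± 0.20. Factors of the naive state, with which KLF4 is usually counted, gave 2 higher and 2 lower of 9 (median 0.23): NR5A2 (1.94 ± 0.16) and TFCP2L1 (0.99 ± 0.24) were higher, and DPPA5 (-1.28 ± 0.34) and TBX3 (-1.11 ± 0.20) lower. On the LIN28 and let-7 axis 2 of 12 were higher and 3 lower (median -0.32), among them MYC (1.63 ± 0.21) and TRIM71 (0.48 ± 0.14), both let-7 targets, which were higher, and TUT4 (-2.65 ± 0.22), the uridylyl transferase that LIN28 recruits to let-7 precursors, and IGF2BP3 (-0.54 ± 0.12), which were lower. Among 9 chromatin partners of PRDM14 and the DNA methylation enzymes 2 were higher (JARID2 by 0.96 ± 0.14 and DNMT3A by 0.49 ± 0.13) and 2 lower (DNMT3L by 1.11 ± 0.22 and TET1 by 0.93 ± 0.17), with a median of -0.03.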

How the data were processed

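RNA of 16 samples was hybridised to Affymetrix PrimeView arrays, 1 per sample. The authors normalised the scans by RMA in Partek (version not given in the sources used here) and deposited log2 levels for 49395 probe sets, from 1.038 to 13.75, and no columns were left unmapped. RMA pulls low levels together, so folds near background are understated. Precision is limited by having 2 arrays per group. Probe sets were named by the platform annotation (44994 of 1 gene, 1832 of several and 2569 of none, the latter kinds being left out of tests). Of the former, 44967 had an Entrez ID in a table of RefSeq genes, and 0 symbols needed updating. Each of 18132 genes was read from its probe set with the highest mean.

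Groups came from the labels. limma 3.58.1 in R 4.3.3 fitted 1 mean per group to all arrays and moderated the variances (residual degrees of freedom 8, prior 4.58), and 17 comparisons were tested, two-sided, with Benjamini-Hochberg adjustment over all genes. The median SE was 0.152. The fit was tested on simulated data. The depleted comparisons of a day share no arrays with each other, but comparisons with day 0 share its arrays, and comparisons with Rescue share the Rescue arrays. Alternatives were the mean of a gene's probe sets, every probe set on its own, leaving out genes below the 25th percentile, cyclic loess, trended robust moderation, only the groups compared, leaving out day 0 and Rescue, Rescue as 1 sample, a replicate block, each array left out, and the methods' thresholds. Promoters came from RefSeq (GRCh38.p14). Named genes were the members, the 3 genes most like each, GATA6, and up to 4 per list with the largest difference between depleted and control cells at day 5. The members and the lists were chosen with earlier results of these data known, and lists are described by counts and medians with no test. List genes without a probe set of their own were not analysed here. Figures were drawn with matplotlib 3.10.9.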

Additional observations from a re-analysis of the deposited data

Results flagged for a closer look

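The effect of GATA6 depletion (depleted minus control, log2) differed between days for 7 of the 10 factors by the limma test of the difference of effects, adjusted over all 18132 genes. Between days 4 and 3 the effect was higher by 2.11 for POU5F1, 1.96 for NANOG, 1.46 for SOX2, 2.82 for KLF4, 1.95 for PRDM14, 0.86 for ZFP42 and 1.82 for FOXD3. Between days 5 and 3 it was higher by 2.26 for POU5F1, 1.84 for NANOG, 1.22 for SOX2, 1.90 for KLF4, 1.83 for PRDM14 and 0.87 for ZFP42. These 13 values share the day 3 arrays. Of all genes, the effect was higher in 8.35% between days 4 and 3 and in 8.63% between days 5 and 3. For KLF4 the other probe set was not called between days 4 and 3, and the mean of both gave 1.62. Several of these calls, both of PRDM14 among them, did not hold when single arrays were left out, as given above.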

How the results depend on the processing

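With 2 arrays per group the smallest differences could not be judged. The members' values followed here were 121, a part of all that were tested. Steps within a course and differences of effects entered only where the main model called them. Gains in the other steps and effects are therefore not counted. Leaving out 1 array at a time gave 536 values, of which 440 kept direction and call, 76 lost the call and 5 gained it. Another 15 changed sign while uncalled. Of 121 values, 120 were unchanged with every probe set tested on its own, 118 with cyclic loess and 106 in a model of only the groups compared. The largest loss was by the methods' thresholds (53 calls), which 0.407% to 2.21% of all probe sets passed. Whether the p-value or the z-score condition removed these calls was not tested. Over all genes, deviations of equally numbered arrays correlated above 0.1 in 4 of 28 pairs of groups (median 0.0166, highest 0.253). For KLF4 replicate 2 was the higher array in every group, and pairing in single genes was not tested. Among the 121 values, the limma model with a replicate block gained 3 calls and lost none. These were KLF4 in control day 3 against day 0 (adjusted p = 0.0186) and in Rescue against control (adjusted p = 0.0421), and FOXD3 in depletion at day 5 (adjusted p = 0.039). Outside those values, that model also gave 1 member in place of 0 between control days 5 and 4.

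Some counts of members called moved as follows, and others also fell when 1 array was left out. The methods' thresholds were passed by 0.407% to 2.21% of all probe sets in the comparisons. The methods' thresholds gave 3, 3 and 1 for control days 3, 4 and 5 against day 0, 0 for control day 4 against 3, 2 for depleted day 4 against day 0, 0, 1 and 0 for depletion at days 3, 4 and 5, 3 and 1 for the effect at days 4 and 5 against day 3, and 6 for Rescue against depleted. A model of only the groups compared gave 0 for control day 4 against 3, 1 for depleted day 4 against day 0 and 0 for depletion at day 3. Trended robust moderation gave 5 for depleted day 5 against day 0 and 2 for depletion at day 3, and cyclic loess 2 for the latter. Without 1 array the counts were 0 to 3 for control day 4 against 3, 2 to 5 for depleted day 5 against day 0, 0 to 2 for depletion at day 3, 4 to 6 for the effect at day 4 against day 3 and 3 to 5 at day 5 against day 3.

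Signs turned only for uncalled values near 0. With the mean of all probe sets KLF4 was at -0.12 in control day 5 against day 0 and LIN28B at -0.07 in depletion at day 4. Without 1 array KLF4 ranged from -0.50 to 0.59 in control day 5 against day 0 and from -0.03 to 0.34 in depletion at day 3, where SOX2 ranged from -0.20 to 0.59, ZFP42 from -0.14 to 0.14 and LIN28A from -0.31 to 0.02. LIN28A ranged from -0.06 to 0.09 and -0.01 to 0.11 at control days 4 and 5 against day 0, SALL4 from -0.03 to 0.23 in depleted day 5 and ZFP42 from -0.44 to 0.05 in depleted day 4 against day 0, and FOXD3 from -0.30 to 0.10 and LIN28B from -0.34 to 0.05 in Rescue against control.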

Other observations

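Markers of other cell types were read at the same arrays. Their counts at day 5 stand against 16.5% of all genes higher and 16% lower, and several lie near those shares. In depleted against control cells at day 5, 1 of 9 primitive streak and mesoderm markers was higher and 2 were lower (median 0.06): TBXT, which encodes brachyury, was higher by 3.43 ± 0.37, and PDGFRA (-1.21 ± 0.36) and MIXL1 (-0.97 ± 0.19) were lower. Of 8 neuroectoderm markers 4 were higher and 2 lower (median 0.14). SOX3 and NES (1.66 ± 0.15) were higher there together with SOX2, whereas PAX6 (-3.86 ± 0.23) and OTX2 (-3.82 ± 0.56) were lower. Of 8 trophoblast and amnion markers 2 were higher and 1 lower (median 0.34). Of 8 germ cell markers, some of which PRDM14 and NANOG share, 3 were higher and 2 lower (median 0.14): TFAP2C rose by 2.80 ± 0.34 against control and SOX15 by 1.46 ± 0.27, and KIT (-3.55 ± 0.25) and PRDM1 were lower. Of 9 fibroblast markers 3 were higher and 1 lower (median 0.01), and their mean level was 4.14 to 4.85 on all arrays. The part of any of these cell types in the levels of the pluripotency factors was not tested.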
